A study of Mus musculus with 6 samples.

Results

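The 30 genes described here encode enzymes and regulators of sterol and fatty acid synthesis, and were chosen by symbol for their place in these pathways. All 30 were found among the 29872 genes of the count table. They comprise 20 sterol genes, of which 17 are enzymes, and 10 genes of fatty acid synthesis, desaturation and elongation. Bulk RNA sequencing covered 3 libraries of CML, chronic myeloid leukaemia, and 3 of WT, wild type, all untreated and on the C57BL/6 background. In both groups the source was bone marrow sorted for a haematopoietic stem cell gate (negative for lineage markers; positive for Sca1, cKit and CD150), and the cells were expanded ex vivo. Not given in the sources used here are the transgene behind the CML label, the age of the animals and the order of sort and expansion. No label states that libraries are separate animals or cultures, so p-values measure only the spread among the libraries, technical or not.

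Cholesterol is built from acetyl-CoA through mevalonate, isoprenoid units, squalene and lanosterol. The SREBP transcription factors, held back in the endoplasmic reticulum by INSIG proteins when sterol is plentiful, activate most genes of this route and many of fatty acid synthesis. Fatty acids are built from the same acetyl-CoA, then elongated and desaturated in the endoplasmic reticulum. Dividing blood progenitors draw on both routes for membrane, and the mevalonate route also supplies the lipid anchors of RAS family proteins.

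The libraries held 13323469 to 17926847 counts. Of the gate genes, Kit was at 309 ± 100.5 CPM (counts scaled to library size, TMM) in CML, against 292 ± 9.05 CPM in WT (SD, n = 3 each). Ly6a (Sca1) averaged 106 ± 57.5 CPM in CML, against 52.2 ± 12.1 CPM in WT. Slamf1 (CD150) averaged 14.2 ± 4.35 CPM in CML, against 24.7 ± 6.61 CPM in WT, and of these genes it alone passed the test (adjusted p = 0.0470, edgeR). Its groups still overlapped, through CML replicate 2 at 19.2 CPM and WT replicate 3 at 18.7 CPM. Ly6a did not pass (adjusted p = 0.173, edgeR), though every CML library lay above every WT library. The CML libraries also carried markers of other cells. The 16 mast cell and basophil markers summed to between 2408 and 8419 CPM in CML, against between 207 and 415 CPM in WT, where Mcpt1 and Mcpt2 were at 0, and 9 of the 15 tested were higher and 0 lower. The 14 monocyte and macrophage markers summed to 112.6 to 248 CPM in CML, against 24.7 to 35.7 CPM in WT, where C1qa was at 0 (4 of 8 tested higher, 0 lower). The 12 erythroid markers summed to 158 to 305 CPM in CML, against 417 to 541 CPM in WT (2 of 7 tested higher, 2 lower), with Hba-a1 and Slc4a1 at 0 in WT. Most of that sum came from the 2 lower genes, Tfrc and Hbb-bt. They averaged 164 and 35.5 CPM in CML, against 310 and 167 CPM in WT. The 2 higher genes, Gata1 and Klf1, averaged 30.4 and 1.71 CPM in CML, against 5.76 and 0.14 CPM in WT. The erythroid sum therefore does not show the direction of the list. The 12 neutrophil markers summed to 167 to 269 CPM in CML, against 131 to 261 CPM in WT, where Camp was at 0 (of 9 tested, edgeR and limma-voom called 0, with 3 at an unadjusted p under 0.05 in edgeR, and DESeq2 called 1). The 14 proliferation genes summed to 3032 to 3331 CPM in CML, against 3278 to 3830 CPM in WT (1 of 14 higher, 2 lower). The called share in edgeR was 60% of the tested mast cell and basophil markers, 50% of the monocyte and macrophage markers and 57.1% of the erythroid markers. It was 21.4% of the proliferation genes, near the 17.4% of all tested genes (10.2% higher and 7.20% lower). The part of these markers in the results below was not tested, and in bulk samples fewer cells of a type and less RNA per cell cannot be told apart.

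Of the 30 genes, 2 passed the test between CML and WT. Scd2, a stearoyl-CoA desaturase gene, was higher in CML, and Stard4, which encodes a carrier of cholesterol between membranes, was lower. The other 28 did not pass the test (edgeR quasi-likelihood test, Benjamini-Hochberg adjusted p under 0.05 over 16221 genes). All 30 had enough counts to be tested. The called share was 6.67% of the 30, against 17.4% of all tested genes, and the single gene in each direction stands beside 10.2% of all tested genes higher and 7.20% lower. At an unadjusted p under 0.05 there were 10 of 30 genes (33.3%), close to the 31.7% of all tested genes. The median log2 fold change, CML over WT, was 0.016 over the 30 genes and -0.0043 over all tested genes. No gene of the 30 had a log2 fold change beyond 0.59 in size, and 80.3% of all tested genes stayed within 0.6.

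**Figure D1:**
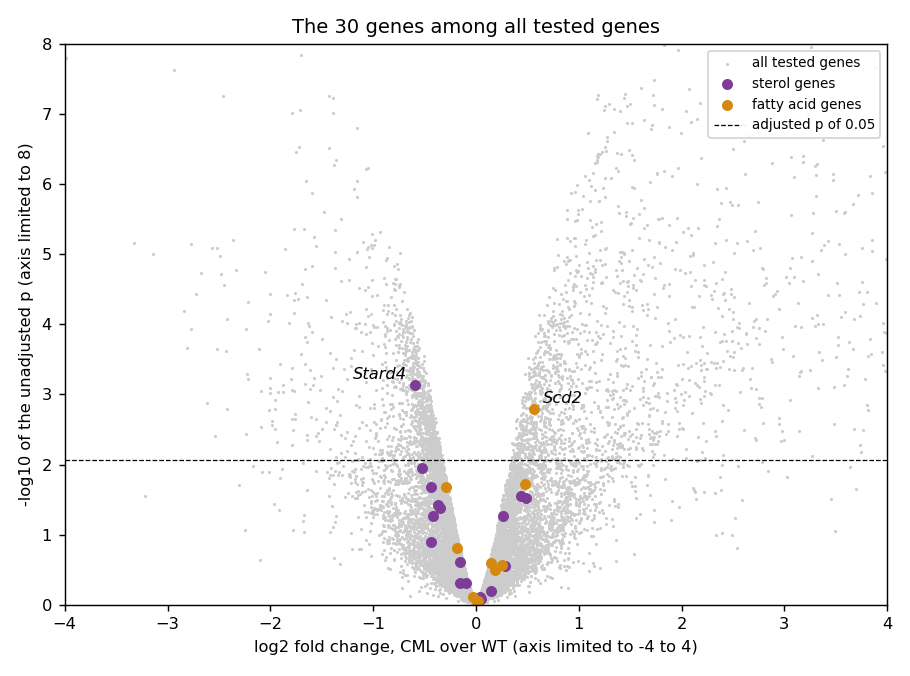
Log2 fold change (CML over WT, x axis) against the -log10 of the unadjusted p (y axis) for all tested genes in grey, the sterol genes in purple and the fatty acid genes in orange; 169 genes lie outside the axes. Scd2 and Stard4 are the 2 coloured points above the dashed line that marks an adjusted p of 0.05.

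The intervals show how far the data limit a difference. For 29 of the 30 genes the 95% interval of the log2 fold change lay wholly between -1 and 1, as it did for 70.6% of all tested genes. The exception was Hmgcs1, with an interval of -1.03 to 0.16. The CML and WT libraries did not overlap for 6 genes, 2 with every CML library above (Scd2 and Ebp) and 4 with every CML library below (Stard4, Sqle, Insig1 and Fads1). Of all tested genes, 18.5% had every CML library above, 16.5% every CML library below, and 35.0% either.

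**Figure D2:**
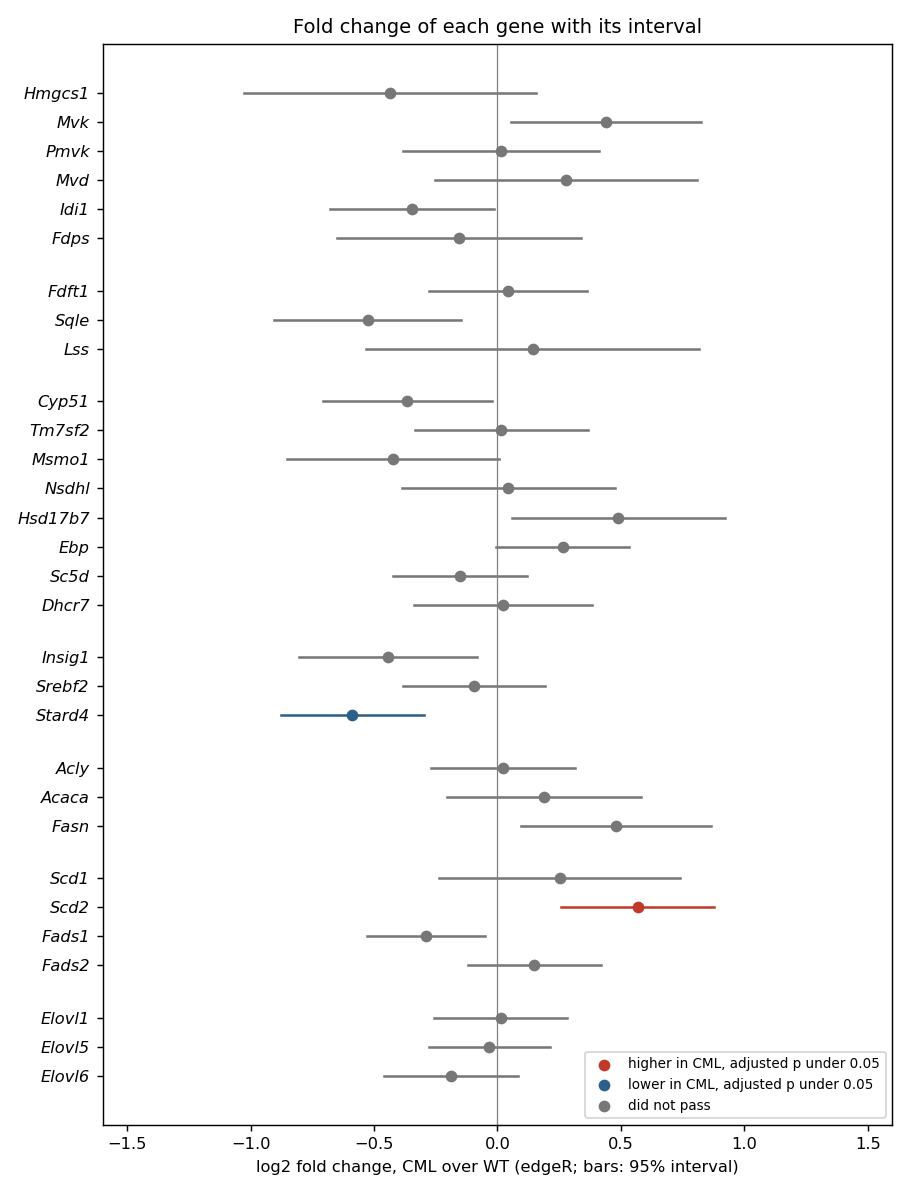
Log2 fold change of each gene (CML over WT, x axis) with its 95% interval from the edgeR fit, ordered by pathway step. Scd2 in red and Stard4 in blue passed the test; Hmgcs1 has the interval that reaches furthest below 0.

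The count of called genes depended on single libraries, among the 30 genes and among all tested genes. With every library, 2820 of 16221 tested genes were called. The count was 3169 of 16696 without CML replicate 1, and 1861 of 16618 without CML replicate 2. It was 1771 of 16538 without CML replicate 3 and 1857 of 16846 without WT replicate 1. It was 1466 of 16786 without WT replicate 2 and 4122 of 16850 without WT replicate 3. Without CML replicate 1, 4 of the 30 genes were higher and 1 lower, with Mvk, Hsd17b7 and Fasn joining Scd2. Without CML replicate 2, 0 were higher and 4 lower, with Sqle, Msmo1 and Insig1 joining Stard4. Without CML replicate 3, 0 were higher and 1 lower. Without WT replicate 1, 1 was higher and 1 lower, Scd2 and Stard4 as with every library. Without WT replicate 2 neither direction had a gene, and without WT replicate 3, 2 were higher (Mvk and Scd2) and 1 lower. The DESeq2 Wald test called 1 higher and 3 lower, adding Sqle and Insig1, as did edgeR with no low-count filter. Over all tested genes these settings called 2998 of 16221 and 3216 of 29299. In the main edgeR fit 1652 of all tested genes were higher and 1168 lower, or 2065 and 732 when libraries were scaled by their totals alone. With that scaling Fasn also passed.

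Per kilobase of exon, Scd2 was the most abundant of the 30 in both groups, at 401 ± 61.6 CPM per kilobase in CML and 270.2 ± 14.4 in WT (SD, n = 3 each). It stood at or above the 99.2 percentile of tested genes in each CML library. Next in WT came Stard4 and Idi1, at 111.9 ± 12.2 and 102.7 ± 16.8 CPM per kilobase, and these do not differ beyond their spread. In CML the order of that pair was turned, with Idi1 at 80.8 ± 14.4 and Stard4 at 74.4 ± 9.44 CPM per kilobase, again within their spread. Hmgcs1 came after these in both groups. The scarcest per length was Acaca, at 2.58 ± 0.55 CPM per kilobase in CML and 2.26 ± 0.42 in WT. Levels from here on are in CPM unless a share per kilobase or a sum over genes is named.

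The mevalonate steps were read from 6 genes, and none passed (edgeR; 2 of 6 at an unadjusted p under 0.05, and 0 by DESeq2 or limma-voom). Hmgcs1 encodes the synthase that makes HMG-CoA, the entry to the route. It was at 176, 344 and 282 CPM in CML replicates 1, 2 and 3, against 352, 445 and 287 CPM in the WT replicates. CML replicates 1 and 3 lay below every WT library, and CML replicate 2 fell inside the WT range. The log2 fold change was -0.44 (its SE 0.26, adjusted p = 0.294). Idi1, which isomerises the isoprenoid building block, showed the same order of libraries within each group. It was at 237, 337 and 276 CPM in CML, against 346, 424 and 310 CPM in WT (log2 fold change of -0.35 with SE 0.15, adjusted p = 0.140). Mvk encodes mevalonate kinase, which acts one step after HMG-CoA reductase. Its values were 12.6, 17.2 and 16.5 CPM in CML, against 10.04, 10.7 and 13.3 CPM in WT, overlapping through CML replicate 1 and WT replicate 3 (log2 fold change of 0.44 with SE 0.18, adjusted p = 0.109). Pmvk and Mvd, the next kinase and the decarboxylase, were at 8.61 ± 1.19 and 10.3 ± 3.39 CPM in CML, against 8.52 ± 0.87 and 8.48 ± 1.78 CPM in WT. Fdps, which makes farnesyl diphosphate, the branch point to protein prenylation, ran from 33.2 to 67.2 CPM in CML, against only from 56.2 to 59.98 CPM in WT. The log2 fold changes of Hmgcs1 and Idi1 were thus negative and those of Mvk and Mvd positive, and none of these 4 passed the test.

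The squalene and lanosterol steps are taken by Fdft1, Sqle and Lss, and none passed in edgeR or limma-voom (1 of 3 at an unadjusted p under 0.05 in edgeR). Sqle encodes squalene epoxidase, a rate-limiting enzyme of the later route. It was at 67.0, 113.9 and 95.7 CPM in CML replicates 1, 2 and 3, against 143.6, 135.6 and 119 CPM in the WT replicates. Every CML library lay below every WT library, with a log2 fold change of -0.53 (its SE 0.17, 95% interval -0.91 to -0.15), which missed the threshold at an adjusted p of 0.0582. With DESeq2 it passed (adjusted p = 0.0167). Fdft1, squalene synthase, was at 41.3 ± 8.41 CPM in CML, against 40.1 ± 1.39 CPM in WT. Lss, the cyclase that makes lanosterol, was at 52.5, 120.7 and 97.9 CPM in CML, against 73.0, 92.4 and 80.2 CPM in WT, so the CML libraries enclosed the WT ones. The Lss interval, -0.53 to 0.82, was the widest of the 30 genes.

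The 8 genes that turn lanosterol into cholesterol had no call in edgeR, DESeq2 or limma-voom with group as the only term (2 of 8 at an unadjusted p under 0.05 in edgeR). Cyp51 encodes the lanosterol demethylase. It was at 108.8, 169 and 151 CPM in CML, against 192, 199 and 161 CPM in WT, and the groups overlapped only through CML replicate 2 and WT replicate 3 (log2 fold change of -0.36 with SE 0.16, adjusted p = 0.132). Msmo1, the methylsterol oxidase that follows, was at 112, 193 and 148 CPM in CML, against 199.8, 235 and 171 CPM in WT (log2 fold change of -0.42 with SE 0.19, adjusted p = 0.165). Hsd17b7, a ketoreductase of the same demethylation complex, had the opposite sign. It was at 25.2, 41.4 and 45.2 CPM in CML, against 23.7, 28.03 and 27.9 CPM in WT, with CML replicates 2 and 3 above every WT library (log2 fold change of 0.49 with SE 0.20, adjusted p = 0.112). Nsdhl, the dehydrogenase of that complex, was at 40.01 ± 12.1 CPM in CML, against 38.7 ± 1.98 CPM in WT. Ebp, the sterol isomerase, was at 32.3, 35.2 and 30.98 CPM in CML, against 26.6, 25.5 and 29.8 CPM in WT, without overlap (log2 fold change of 0.26 with SE 0.12, adjusted p = 0.168). Tm7sf2 and Dhcr7, which reduce sterol intermediates, and Sc5d, a sterol desaturase, had log2 fold changes of 0.016, 0.022 and -0.15.

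Among the regulators and the carrier, Stard4 was lower. Stard4 (chromosome 18, 33199355 to 33213862, minus strand, GRCm38, protein-coding) was at 356, 455 and 436 CPM in CML replicates 1, 2 and 3, against 625, 693 and 557 CPM in the WT replicates. No CML library reached the lowest WT library, and the means differed by a factor of 0.665 (log2 fold change of -0.59 with SE 0.13, adjusted p = 0.00902). It did not pass without WT replicate 2 (adjusted p = 0.0584). Insig1 encodes the protein that retains the SREBP complex and is itself an SREBP target. It was at 70.7, 120 and 104.8 CPM in CML, against 129, 135 and 137 CPM in WT, again without overlap, but missed the threshold (log2 fold change of -0.44 with SE 0.16, adjusted p = 0.0877; 0.0474 by DESeq2). Srebf2, which encodes the SREBP form that favours sterol genes, was at 86.3 ± 13.7 CPM in CML, against 92.2 ± 7.61 CPM in WT (log2 fold change of -0.095 with SE 0.13, adjusted p = 0.674). Its value was 0.00027 when scaled by library totals.

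**Figure D3:**
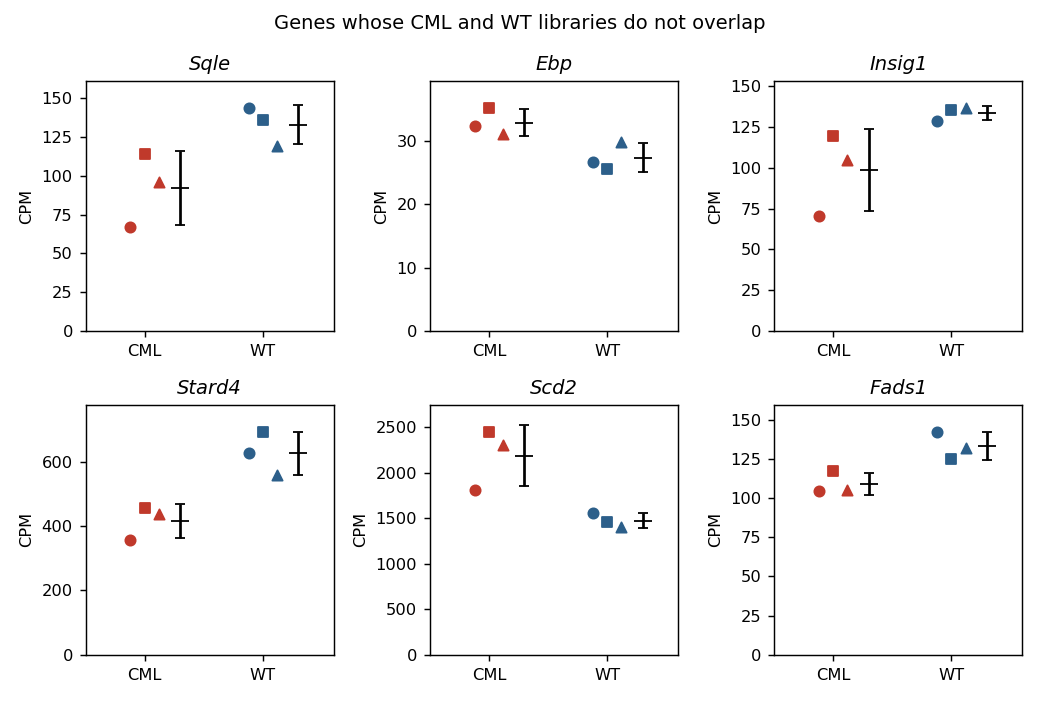
CPM in each library (circle, square and triangle for replicates 1, 2 and 3) with mean and SD in black, for the 6 genes whose CML (red) and WT (blue) libraries do not overlap. Scd2 and Ebp lie higher in CML; Sqle, Insig1, Stard4 and Fads1 lie lower, with CML replicate 1 far below its fellows for Sqle and Insig1.

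Promoter windows were examined for letters that sterol genes often share: a sterol response element, an E-box and the CCAAT box of NF-Y, a factor known to act beside SREBP. Windows of 250 bases before to 50 bases after the start (RefSeq, GRCm38.p6) were found for 23 of the 30 genes, and not for Fads1, Fdft1, Fdps, Scd1, Scd2, Sqle and Stard4. The table holds several windows for some genes, and the 23 genes have 27, with 3 for Dhcr7 and 2 each for Elovl1 and Pmvk. On both strands ATTGG or its complement CCAAT occurred in 20 of the 27 windows (74.1%), against 38.3% of the 13002 windows of tested genes and 37.4% of all 32851. CACGTG occurred in 5 of 27 (18.5%), against 9.89% of the windows of tested genes and 7.15% of all. For the sterol response element, a single string of the SRE-1 type with a single free letter was searched on both strands. It occurred in 0 of 27 windows, 0.162% of the windows of tested genes and 0.234% of all. A string this rare is likely to be missing from any 27 windows, so its absence does not show that these promoters lack the element. Other forms of the element were not searched. No match overlapped one of another motif. Insig1 and Hsd17b7 are shown because they had the lowest adjusted p among the 3 sterol genes with both an E-box and a CCAAT box in the same window. This choice was made after the search, and neither gene passed the edgeR test. Capitals mark ATTGG and CACGTG. The Insig1 window is chr5:28071162-28071461, plus strand, and the Hsd17b7 window chr1:169969156-169969455, minus strand.
Insig1: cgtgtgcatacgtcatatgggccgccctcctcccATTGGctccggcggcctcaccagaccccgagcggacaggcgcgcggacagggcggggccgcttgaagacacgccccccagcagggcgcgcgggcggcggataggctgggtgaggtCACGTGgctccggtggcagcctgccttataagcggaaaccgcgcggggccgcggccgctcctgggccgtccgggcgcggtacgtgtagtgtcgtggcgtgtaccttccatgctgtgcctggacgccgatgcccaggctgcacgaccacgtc
Hsd17b7: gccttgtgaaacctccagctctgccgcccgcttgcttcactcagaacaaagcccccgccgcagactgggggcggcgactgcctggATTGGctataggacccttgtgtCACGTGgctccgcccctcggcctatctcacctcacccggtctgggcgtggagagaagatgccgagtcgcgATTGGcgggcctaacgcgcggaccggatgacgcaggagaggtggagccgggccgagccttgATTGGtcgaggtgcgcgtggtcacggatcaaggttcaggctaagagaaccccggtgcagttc
The E-box began 101 bases before the start of Insig1 and 143 bases before that of Hsd17b7. Insig1 held 1 ATTGG, 216 bases before the start, and Hsd17b7 held 3, at 165, 73 and 12 bases before it.

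Fatty acid synthesis proper was read from Acly, Acaca and Fasn, which make cytosolic acetyl-CoA, malonyl-CoA and palmitate in turn. None passed in edgeR, DESeq2 or limma-voom (1 of 3 at an unadjusted p under 0.05). Fasn was at 31.3, 52.5 and 40.7 CPM in CML replicates 1, 2 and 3, against 28.1, 33.8 and 27.2 CPM in the WT replicates. CML replicate 1 fell inside the WT range and the other CML libraries above it (log2 fold change of 0.48 with SE 0.18, 95% interval 0.095 to 0.87, adjusted p = 0.0827). Acly was at 145 ± 25.5 CPM in CML, against 143 ± 6.21 CPM in WT, and Acaca at 43.98 ± 9.35 and 38.6 ± 7.23 CPM.

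Of the 4 desaturase genes 1 was higher and 3 did not pass. Scd2 (chromosome 19, 44293674 to 44306864, plus strand, GRCm38, protein-coding) introduces the bond that makes oleate and palmitoleate. It was at 1812, 2454 and 2307 CPM in CML replicates 1, 2 and 3, against 1563, 1457 and 1410 CPM in the WT replicates. The lowest CML library lay above the highest WT library, the ratio of means was 1.48, and the log2 fold change was 0.57 (SE 0.14, 95% interval 0.26 to 0.88, adjusted p = 0.0157). It did not pass without CML replicate 2 (0.0879), CML replicate 3 (0.0694) or WT replicate 2 (0.0800). Scd1, its neighbour on chromosome 19 with the same activity, was at 115, 213 and 168 CPM in CML, against 156, 147 and 113 CPM in WT, overlapping (log2 fold change of 0.25 with SE 0.22, adjusted p = 0.472). Per kilobase, Scd2 made up 93.4%, 91.2% and 92.5% of Scd1 plus Scd2 in CML replicates 1, 2 and 3, and 89.97%, 89.9% and 91.8% in the WT replicates. The sources used here do not give the handling of reads shared between these paralogues, so the share is uncertain.

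Fads1 and Fads2 encode desaturases of polyunsaturated fatty acids and lie beside each other on chromosome 19. Fads1 was at 104.4, 117.1 and 105.03 CPM in CML, against 142, 125 and 132 CPM in WT. Every CML library lay below every WT library, without passing the test (log2 fold change of -0.29 with SE 0.11, adjusted p = 0.0892). Fads2 was at 151, 188 and 170.3 CPM in CML, against 147, 139.97 and 172 CPM in WT, overlapping (log2 fold change of 0.15 with SE 0.12, adjusted p = 0.455). The elongases Elovl1, Elovl5 and Elovl6, which extend very long, polyunsaturated and saturated chains, had log2 fold changes of 0.013, -0.033 and -0.19. Elovl5 was at 182 ± 18.4 CPM in CML, against 187 ± 6.93 CPM in WT, with an interval of -0.28 to 0.21, and Elovl1 at 52.3 ± 6.02 and 51.8 ± 3.92 CPM. Elovl6 was at 113.8 ± 16.4 CPM in CML, against 129.6 ± 7.92 CPM in WT (SE 0.13, adjusted p = 0.334). None of the 3 elongases passed by edgeR, DESeq2 or limma-voom, or had an unadjusted p under 0.05.

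**Figure D4:**
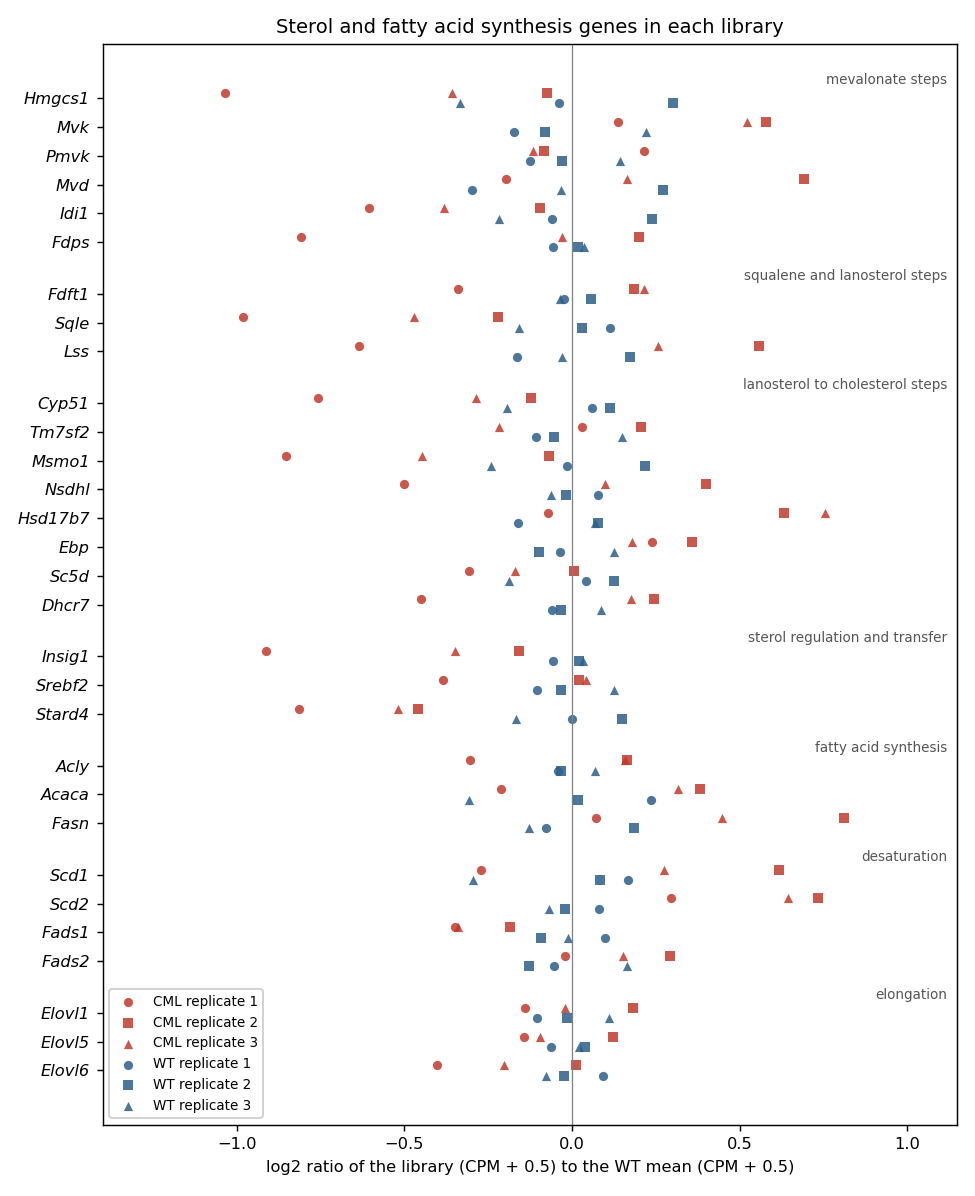
Log2 ratio of each library to the WT mean (x axis, 0.5 CPM added) for each gene, CML libraries in red and WT libraries in blue, one shape per replicate. CML replicate 1 (red circle) is the lowest CML library for 27 of the 30 genes and CML replicate 2 (red square) the highest for 26.

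For most of the 30 genes the CML libraries were spread wider than the WT libraries and in a common order. CML replicate 1 was the lowest CML library for 27 of the 30 genes (90%), against 36.9% of all tested genes. CML replicate 2 was the highest for 26 (86.7%), against 33%. The order of replicates 1, 3 and 2 from low to high held for 24 of the 30 genes (80%), including all 10 fatty acid genes, and for 19.8% of all tested genes. The coefficient of variation was larger in CML than in WT for 27 of 30 genes (90%), against 44.1% of all tested genes. Its medians over the 30 genes were 19.1% in CML and 9.69% in WT. Over all tested genes they had the other order, 12.2% in CML and 14.3% in WT. The median log2 ratio of the 17 sterol enzymes to their WT means was -0.45, 0.20 and -0.030 in CML replicates 1, 2 and 3, and -0.056, 0.056 and -0.032 in the WT replicates. For the 10 fatty acid genes it was -0.18, 0.24 and 0.16 in CML and 0.021, -0.017 and -0.040 in WT. These genes share regulators and libraries, so they are not independent replicates of the order.

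The mast cell and basophil markers had the same order among the CML libraries, at a summed 2408, 8419 and 5313 CPM in replicates 1, 2 and 3, and so did the monocyte and erythroid sums. The neutrophil sums, at 167, 220.5 and 269 CPM, and the proliferation sums, at 3310.2, 3032 and 3331 CPM, had other orders. The part of these lists in the order of the sterol and fatty acid genes was not tested. In summed CPM the 17 sterol enzymes held 1066, 1738 and 1468 in CML and 1685, 1928 and 1513 in WT, so that CML replicates 1 and 3 lay below every WT library and CML replicate 2 inside the WT range. Hmgcs1 and Idi1 were the largest terms, averaging 267 and 283 CPM in CML, against 361 and 360 CPM in WT. Of the 17 enzymes, 10 had a positive log2 fold change and 7 a negative one, with a median of 0.016. The sum thus does not stand for most of these enzymes. The 10 fatty acid genes summed to 2675, 3628 and 3336 CPM in CML, against 2587, 2452 and 2402 CPM in WT. Scd2 alone was 67.7% to 69.1% of that sum in CML and 58.7% to 60.4% in WT. Without Scd2 the other 9 genes summed to 864, 1174 and 1030 CPM in CML, against 1023, 995 and 993 CPM in WT, which overlap.

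**Figure D5:**
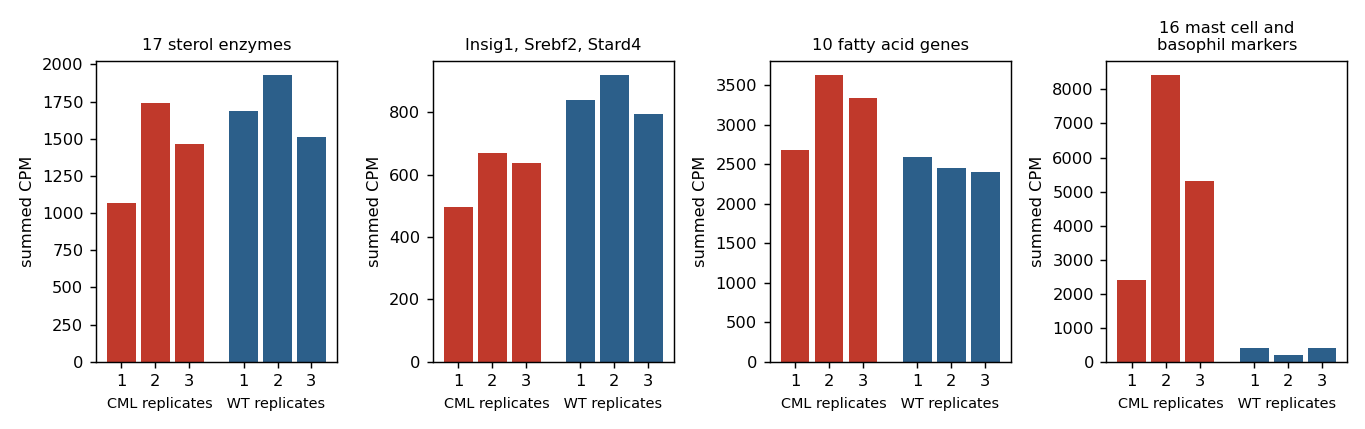
Summed CPM per library (bars, from 0) in CML replicates (red) and WT replicates (blue) for the 17 sterol enzymes, for Insig1, Srebf2 and Stard4, for the 10 fatty acid genes and for 16 mast cell and basophil markers. In each panel CML replicate 1 is the lowest and CML replicate 2 the highest of the CML bars.

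Other genes of these routes were read from lists chosen by function. Of 17 further genes around SREBP 15 were tested, and 1 was higher and 1 lower (13.3% called, below the 17.4% of all tested genes). Srebf1, which encodes the SREBP forms that favour fatty acid genes, was at 59.9, 75.2 and 65.9 CPM in CML, against 36.3, 38.3 and 45.2 CPM in WT, without overlap (log2 fold change of 0.75 with SE 0.13, adjusted p = 0.00194). Srebf1 passed in every leave-one-out fit, with adjusted p up to 0.0172. Rnf139, an endoplasmic reticulum ubiquitin ligase gene, fell by 0.48 on the log2 scale (SE 0.14, adjusted p = 0.0277). Without CML replicates 2 or 3 its adjusted p was 0.0585 or 0.124, and without WT replicates 1 or 2 it was 0.0893 or 0.128.

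Of 26 further fatty acid genes 20 were tested, and 1 was higher and 5 lower (30% called, beside 17.4% of all tested genes, of which 10.2% were higher and 7.20% lower). Hsd17b12, the ketoreductase of the fatty acid elongation cycle, was at 180.3, 192 and 166 CPM in CML, against 312, 325 and 268 CPM in WT (log2 fold change of -0.75 with SE 0.12, adjusted p = 9.14e-04). Hacd1, a dehydratase of the cycle, fell by 1.16 (SE 0.17, adjusted p = 4.32e-04), and Elovl7, a further elongase, by 1.03 (SE 0.17, adjusted p = 0.00185). Each kept its call in all 6 leave-one-out fits. The other 2 that fell, Hacd3 (-0.39) and the mitochondrial synthase gene Oxsm (-0.38), were named after their values were seen. Each lost its call without CML replicate 2 or 3 or WT replicate 1 or 2, and when scaled by library totals, with adjusted p from 0.0628 to 0.135. Other genes of the cycle, also named after their values were seen, did not pass: Tecr, its last enzyme, was at 37.2 ± 2.96 CPM in CML, against 37.9 ± 2.65 CPM in WT, and Hacd2, a further dehydratase, at 27.9 ± 2.58 CPM in CML, against 31.8 ± 1.30 CPM in WT (log2 fold change of -0.19, adjusted p = 0.338). Fads3, the third gene of the Fads cluster, was higher at 10.6, 12.5 and 7.01 CPM in CML, against 4.48, 5.18 and 6.35 CPM in WT (log2 fold change of 0.91 with SE 0.24, adjusted p = 0.0189). Its adjusted p was 0.0850 without CML replicate 2, and 0.0647 or 0.0758 without WT replicates 1 or 2.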

How the data were processed

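The deposited values are the authors' estimated counts by gene symbol for 6 libraries; 35% to 36.9% of a library's entries are not whole, and totals differ between libraries. Per the submitters' processing notes, STAR 2.7.3a, Partek 8.0 and the build mm10 were used, without their roles; not given in the sources used here are the annotation, the strand setting and the handling of shared reads. Per the labels' protocols, a column kit gave the RNA and a transposase kit the libraries. Estimated counts were rounded, filtered with filterByExpr (minimum count 10; 16221 genes kept), scaled by TMM and tested with edgeR 4.0.16 (quasi-likelihood F test, robust, group as the only term, two-sided, R 4.3.3), with Benjamini-Hochberg adjustment over all tested genes and a threshold of 0.05. Standard errors and 95% intervals follow from the F statistic. CPM are TMM-scaled. Exon lengths and coordinates come from GENCODE M21 (GRCm38, the assembly of mm10), with a single gene for 97.4% of tested symbols. Groups and replicate numbers were read from the sample titles. The alternatives were other scalings and filters, DESeq2 1.42.0, limma-voom (limma 3.58.1), a replicate block and leaving out each library. The pipeline was tested on simulated data. The members, lists and tests were chosen with earlier results of these data known. All 30 genes are named; of the other pathway lists, up to 4 called genes with the lowest adjusted p. Reads carry no molecular identifiers.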

Additional observations from a re-analysis of the deposited data

How the results depend on the processing

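Of the 390 values of the 30 genes under 13 alternatives, 338 kept direction and side of the threshold, 4 lost a call, 16 gained one and 32 changed sign, all of the last from log2 fold changes of at most 0.28 in size that were not called. The number of the 30 genes higher in CML, 1 as reported, was 2 with library totals, and the number lower, also 1, was 3 with no low-count filter and 3 with the DESeq2 Wald test. Leaving out 1 library gave 0 to 4 genes higher, 0 to 4 lower, and 1466 to 4122 changed genes in all, against 2820. Those fits change both the samples and the genes tested. Values that changed sign were 0.00027 for Srebf2 and 0.064 for Elovl5 with library totals; -0.013, -0.012, -0.0090, -0.0090 and -0.016 for Pmvk, Tm7sf2, Dhcr7, Acly and Elovl1 with no low-count filter; and -0.0071 and -0.011 for Nsdhl and Dhcr7 with limma-voom. The cause was not tested. With 1 library left out the log2 fold changes ran from -0.11 to 0.095 for Pmvk, -0.37 to 0.085 for Fdps, -0.17 to 0.028 for Srebf2, -0.12 to 0.015 for Elovl5, -0.0032 to 0.47 for Mvd, -0.056 to 0.20 for Fdft1, -0.12 to 0.41 for Lss, -0.092 to 0.12 for Tm7sf2, -0.17 to 0.25 for Nsdhl, -0.10 to 0.21 for Dhcr7, -0.055 to 0.16 for Acly and -0.079 to 0.081 for Elovl1. Scaling by library totals moved all log2 fold changes by a median of 0.098, and the share of higher calls was then 73.8%, against 58.6%.

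No label states whether replicate numbers pair the libraries. Same-numbered CML and WT libraries had correlations of deviations of -0.021, -0.052 and 0.0087, and CML replicate 1 correlated best with WT replicate 2 (0.085). Values this small do not settle whether the numbers pair the libraries. With the replicate block 2807 genes were called, with 3 of the 30 higher and 3 lower. Hsd17b7 (adjusted p = 0.0493) and Fasn (0.0377) joined Scd2, Msmo1 (0.0472) and Insig1 (0.0362) joined Stard4, and Dhcr7 was at -0.0061. With 3 libraries a group, the widest interval of a log2 fold change among these genes, that of Lss, ran from -0.53 to 0.82.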

Other observations

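LXR is the sterol-sensing receptor that drives cholesterol efflux. Genes that respond to it, with Nr1h2 and Nr1h3, which encode its forms, were read from a list of 9. Of these 8 were tested, Nr1h2 among them and Nr1h3 not. In CML 4 were higher and 1 lower (62.5% called, beside 17.4% of all tested genes, of which 10.2% were higher and 7.20% lower), and the median log2 fold change was 0.96, beside -0.0043 over all tested genes. Abca1, the cholesterol exporter, was at 68.7, 104.4 and 85.3 CPM in CML replicates 1, 2 and 3, against 12.9, 10.2 and 12.6 CPM in the WT replicates (a log2 fold change of 2.85 with SE 0.17, adjusted p = 2.53e-07, edgeR). Abcg1, a partner exporter, was at 164, 171 and 174 CPM in CML, against 52.4, 46.7 and 53.6 CPM in WT (log2 fold change 1.74, adjusted p = 4.99e-07). Mylip, a ubiquitin ligase that lowers the LDL receptor, and Arl4c, a small GTPase, were higher by 1.47 and 2.61 on the log2 scale (edgeR adjusted p = 1.46e-05 and 6.72e-05). The gene that fell, Smpdl3a, had a log2 fold change of -0.53 (adjusted p = 0.0148), which missed the threshold without CML replicate 3 (0.0871) or WT replicate 2 (0.0724), and was named after its values were seen. Nr1h2, which encodes one LXR form, was at 38.97 CPM in CML, against 32.1 CPM in WT and did not pass, and Nr1h3 had 17 counts over the CML libraries and 15 over the WT libraries. The mast cell and monocyte marker sums are higher in CML too, and their part in these values was not tested.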
